A study of Homo sapiens with 12 samples.

Results

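The small RNA silencing machinery was followed through 10 genes of HK2 cells, an immortalised line from the human proximal tubule: AGO1, AGO2, AGO3, AGO4, DICER1, TARBP2, PRKRA, TNRC6A, TNRC6B and TNRC6C. The genes were taken by name and not by a cut on a measured value, but with earlier results of these data known. Each matched a single one of the 62703 Ensembl identifiers in the expression files. The RNA-seq series holds 12 libraries in 4 groups of 3, and the question asked of these genes was how cells that received an siRNA compared with the other 3 groups. NG cells were kept in 5.5 mM glucose with a control vector, and si-FGF9 cells in 5.5 mM glucose with an siRNA against FGF9 (fibroblast growth factor 9) delivered by lipofection. HG cells were kept in 50 mM glucose, and HG + OE-FGF9 cells in 50 mM glucose with an FGF9 lentivirus vector. The study's own text also describes NG as a mannitol condition and the vector as an adenovirus, so that the osmotic matching of NG and si-FGF9 to the high glucose groups is uncertain. No non-targeting siRNA is described, so that in si-FGF9 versus NG the FGF9 siRNA, siRNA uptake as such and the change of vector cannot be told apart. The comparisons of si-FGF9 with HG and HG + OE-FGF9 also differ in glucose. The labels do not say that the 3 libraries of a group came from separate cultures, so that p-values measure the spread between these libraries, which may be technical.

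In small RNA silencing, the ribonuclease DICER1 cuts precursor RNAs into short duplexes with the help of its double-stranded RNA-binding partners TARBP2 (TRBP) and PRKRA (PACT). An Argonaute protein, AGO1 to AGO4, keeps a single strand of the duplex as a guide and finds transcripts that match its seed, the bases near the 5′ end of the guide. TNRC6 proteins (GW182) bind the Argonaute and recruit the deadenylases that shorten the tail of the target. A transfected siRNA is already a short duplex and enters an Argonaute without being cut by DICER1, and AGO2 is the Argonaute known for slicing a fully matched target.

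The siRNA is shown because it is the small RNA that these cells were given, and because its seed decides which transcripts of the machinery could themselves match it. The strand printed in the labels is given without its TT overhang, together with its complement, both 5′ to 3′, with bases 2 to 8 in capitals.
Strand as printed: cUAUGUUGcauuaaauaaa
Complementary strand: uUUAUUUAaugcaacauag
The printed strand has the same sense as the FGF9 transcript, so that the complementary strand is the one that pairs with FGF9. Its site lies in the coding part of the last exon of the longest FGF9 transcript, at chr13:21701294-21701312 of GRCh38, on the plus strand. Which of the strands was loaded in these cells is not known.
A match to the seed of the printed strand, the DNA letters CAACATA, was present in the longest annotated transcript of 5 of the 10 genes, against 17.8% of 9455 protein-coding genes. AGO3 held 3 such matches, AGO4 2, and DICER1, TNRC6A and TNRC6C 1 each. A match to the seed of the complementary strand, TAAATAA, was present in 5 of the 10 genes, against 39.3% of the 9455. AGO3 held 6, AGO1 3, TNRC6B 2, and AGO2 and AGO4 1 each, whereas DICER1, TNRC6A, TNRC6C, TARBP2 and PRKRA held 0. Only the transcript strand was searched. The transcripts of TARBP2 and PRKRA, 1867 and 1851 bases, are short beside those of the other members, at 7116 to 19687 bases, and a long transcript holds more matches.

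The values are TPM, a level per transcript length scaled to the same sum in every library, which leaves the sequencing depth unknown. FGF9 was listed at 0 TPM in all 9 libraries outside HG + OE-FGF9 and at 3.34, 4.03 and 3.82 TPM in HG + OE-FGF9, so that its knockdown could not be checked in these libraries. The study also measured FGF9 by RT-qPCR in the same groups. There its mean was lower in si-FGF9 than in NG, with a p-value that missed the study's own threshold. Between 11549 and 13949 genes reached 1 TPM, with the si-FGF9 libraries lowest at 11549 to 12013. Mitochondrial transcripts summed to 49385 to 85968 TPM in si-FGF9 against 113127 to 155574 elsewhere, and small nuclear and nucleolar RNAs to 5275 to 16630 TPM in HG + OE-FGF9 against at most 833 elsewhere. HG replicate 3 stood apart, with an SD of the log2 differences of 0.675 and 0.834 to the other HG libraries, which differed from each other by 0.441. HG + OE-FGF9 replicate 3 stood apart as well, at 0.642 and 0.653 against 0.318. Of 12 tubule epithelial markers, 10 were at 1 TPM or more in all 12 libraries, CDH1 and PAX2 being the exceptions, and of 12 markers of the differentiated proximal tubule only GGT1 was. The highest value of 12 markers of leukocytes, endothelium, fibroblasts, podocytes and the thick limb was 7.81 TPM, for COL1A1. In such bulk libraries, fewer cells with a transcript and less of it per cell cannot be told apart.

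The si-FGF9 libraries held less DICER1, TNRC6A, TNRC6B, AGO4 and PRKRA than the NG libraries, with mean TPM at 9.66%, 15.8%, 30.0%, 37.2% and 37.5% of NG. AGO1, AGO2 and AGO3 were at 65.5%, 63.3% and 65.4% of NG, and TARBP2 at 86.5%. HG cells, which received no siRNA, also held less DICER1, TNRC6B, TNRC6A and AGO4 than NG cells, at 23.8%, 28.2%, 31.7% and 34.5%. TARBP2 was higher in HG on average, at 143.3%. A gene was called when its log2 fold change was at least 1 in either direction with an unadjusted p under 0.01 in limma, and Benjamini-Hochberg adjusted p are given beside it. Of the 10 members, 9 passed the filter on low values (3 libraries or more with a TPM not under 1) and TNRC6C did not. Between si-FGF9 and NG, 4 of the 9 were called, all lower in si-FGF9, against 47.6% of the 14639 genes tested, 42.2% being called lower. The share of members, 44.4%, was close to that of all genes. By an adjusted p under 0.05 at any fold, 6 of the 9 passed, against 69.3% of all genes. The median log2 fold change was -0.93 over the 9 members and -0.79 over all genes.

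**Figure D1:**
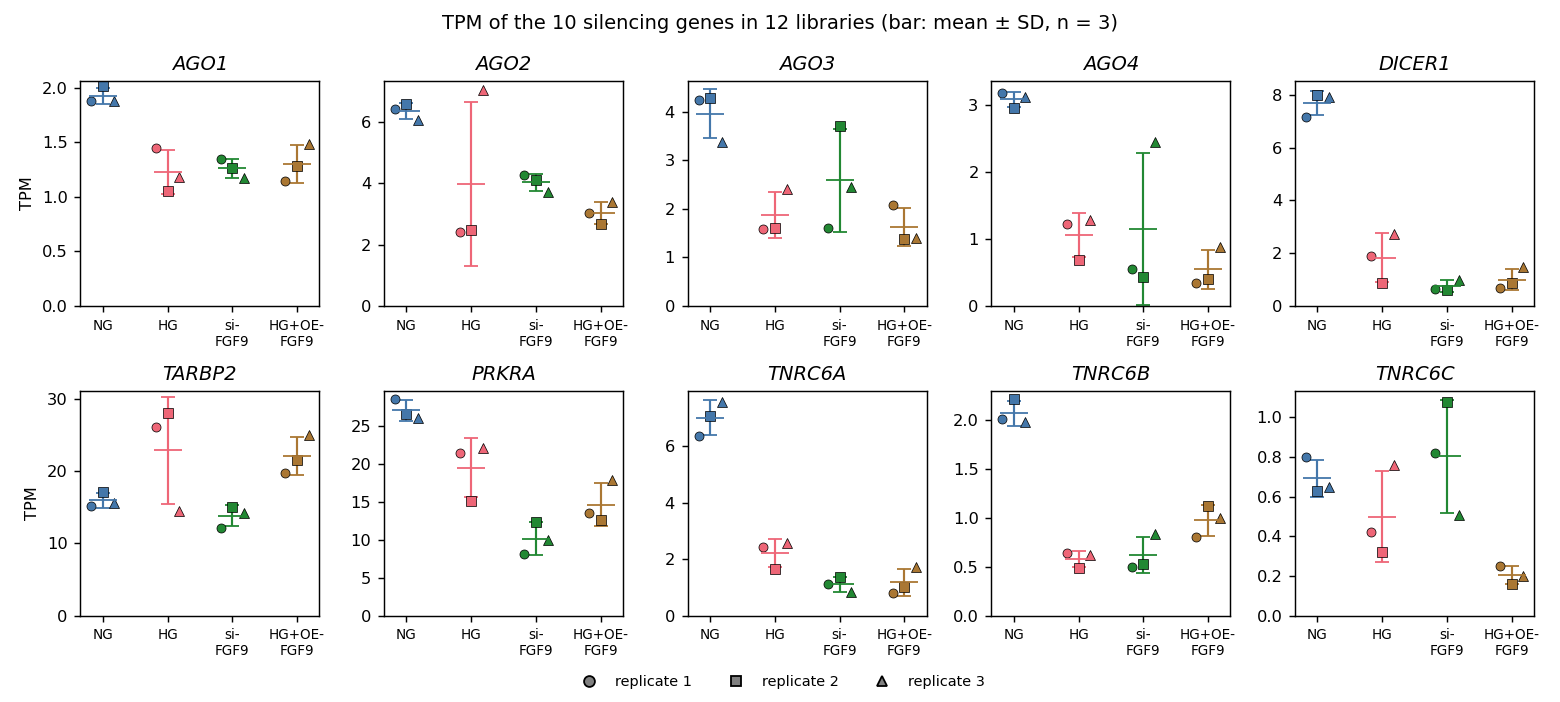
TPM of each of the 10 genes in the 12 libraries, with its own vertical axis from 0 in each panel. Symbols are replicates, and the bar gives mean ± SD (n = 3). DICER1, TNRC6A and TNRC6B were higher in the 3 NG libraries than in the other 9, AGO2 was at 7.04 TPM in HG replicate 3, AGO4 at 2.46 TPM in si-FGF9 replicate 3, and PRKRA was lowest in the 3 si-FGF9 libraries.

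Among the genes of the dicing step, DICER1 (ENSG00000100697, chr14:95086228-95158010 of GRCh38, minus strand) had TPM of 7.18, 7.98 and 7.93 in NG and of 0.64, 0.59 and 1.0 in si-FGF9. It was at 1.90, 0.88 and 2.72 TPM in HG and at 0.69, 0.86 and 1.46 TPM in HG + OE-FGF9. NG stood above all 9 other libraries, and the other 3 groups overlapped. Relative to NG, the log2 fold change was -2.32 ± 0.25 (SE; limma, adjusted p = 1.28e-05) in si-FGF9, and in HG it was -1.67 ± 0.25 (adjusted p = 0.000783). DICER1 remained called in each of the 6 fits that left out a library, for both comparisons, and was at -1.90 in HG versus NG without HG replicate 3. It shares 80 exonic bases with the antisense gene DICER1-AS1, at 2.62 to 14.63 TPM, and reads of the pair can be told apart only if strand was used in counting, which is not given in the sources used here.

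PRKRA (ENSG00000180228, chr2:178431414-178451512, minus strand), which binds DICER1 and is also an activator of the kinase PKR, had TPM of 28.66, 26.59 and 26.05 in NG and of 8.14, 12.40 and 9.95 in si-FGF9. Its TPM were 21.44, 15.07 and 22.15 in HG and 13.52, 12.58 and 17.90 in HG + OE-FGF9. It was the only member of which the 3 si-FGF9 libraries lay below all 9 others, as they did for 19.5% of the genes tested, and no member lay above all 9 (23.0% of genes were outside the range on either side). The gap was small, from 12.40 TPM in si-FGF9 replicate 2 to 12.58 TPM in HG + OE-FGF9 replicate 2. Its log2 fold change in si-FGF9 versus NG was -1.35 ± 0.20 (limma, adjusted p = 9.13e-05), but -0.38 with median-of-ratios scaling and 0.30 with a correction for GC content, neither of which was called. An antisense gene at 1.49 to 8.92 TPM shares 85 of its exonic bases.

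TARBP2 (ENSG00000139546, chr12:53500921-53506431, plus strand) was, on average, highest in HG and not in NG. Its TPM were 15.10, 17.14 and 15.55 in NG, 12.17, 14.97 and 14.21 in si-FGF9, 26.04, 28.03 and 14.41 in HG and 19.74, 21.53 and 24.94 in HG + OE-FGF9. HG replicate 3 lay below the NG libraries and the other HG libraries above them. Its log2 fold change was -0.20 ± 0.22 in si-FGF9 versus NG (limma, adjusted p = 0.443) and 0.44 ± 0.22 in HG versus NG (adjusted p = 0.118), the latter being 0.73 without HG replicate 3. Its direction in si-FGF9 versus NG turned with median-of-ratios scaling, to 0.77. TARBP2 has the highest GC content of the members, 60.79%, and PRKRA the lowest, 37.6%.

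Of the Argonautes, AGO2 (ENSG00000123908, chr8:140520156-140635619, minus strand), the slicer, had TPM of 6.42, 6.59 and 6.06 in NG and of 4.26, 4.09 and 3.72 in si-FGF9. It was at 2.40, 2.47 and 7.04 TPM in HG and at 3.02, 2.68 and 3.38 TPM in HG + OE-FGF9. The si-FGF9 libraries lay below NG and above HG + OE-FGF9, while HG replicate 3 exceeded every other library. The log2 fold change in si-FGF9 versus NG was -0.55 ± 0.28 (limma, adjusted p = 0.0999). In HG versus NG it was -0.69 ± 0.28 (adjusted p = 0.0601), and -1.10 without HG replicate 3, when the gene was called. An unclassified gene on the same strand, at 0.67 to 7.83 TPM, shares 47 exonic bases with AGO2.

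AGO4, AGO1 and AGO3 lie side by side on the plus strand of chromosome 1, at 35808172-35857890, 35869808-35930528 and 35930718-36072500. The gaps between them are 11917 and 189 bases. AGO4 (ENSG00000134698) had TPM of 3.18, 2.96 and 3.13 in NG and of 0.55, 0.44 and 2.46 in si-FGF9. Its 3 si-FGF9 libraries lay below NG but far from each other. The TPM were 1.23, 0.69 and 1.28 in HG and 0.35, 0.41 and 0.88 in HG + OE-FGF9. AGO4 was called in si-FGF9 versus NG, at -1.05 ± 0.30 (limma, adjusted p = 0.00712). The call was lost in 5 of the 6 fits that left out a library, with values of -0.82 to -1.07, and was kept at -1.45 without si-FGF9 replicate 3. AGO4 was at -0.40 with median-of-ratios scaling and at 0.08 with a correction for GC content, not called in either. In HG versus NG the log2 fold change of AGO4 was -1.0 ± 0.30 (adjusted p = 0.0154), just short of the fold threshold, and -1.07 and called without HG replicate 3.

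AGO1 (ENSG00000092847) had TPM of 1.88, 2.01 and 1.88 in NG and of 1.35, 1.26 and 1.17 in si-FGF9. HG stood at 1.45, 1.05 and 1.18 TPM and HG + OE-FGF9 at 1.14, 1.28 and 1.48 TPM. NG was above the other 9 libraries, and the other 3 groups could not be ordered. The log2 fold change was -0.37 ± 0.15 (limma, adjusted p = 0.0418) in si-FGF9 and -0.40 ± 0.15 (adjusted p = 0.0442) in HG, each versus NG and each short of the fold threshold.

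AGO3 (ENSG00000126070) had TPM of 4.23, 4.27 and 3.37 in NG, 1.61, 3.71 and 2.44 in si-FGF9, 1.58, 1.60 and 2.41 in HG and 2.07, 1.38 and 1.40 in HG + OE-FGF9. The si-FGF9 libraries overlapped those of all other groups. On the log2 scale the change was -0.50 ± 0.23 (limma, adjusted p = 0.0708) in si-FGF9 versus NG and -0.80 ± 0.23 (adjusted p = 0.0138) in HG versus NG. AGO1 and AGO3 each share exonic bases with a non-coding gene on the other strand, both at 0.75 TPM or less.

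TNRC6A (ENSG00000090905, chr16:24610209-24827632, plus strand), the most abundant TNRC6 gene in NG, had TPM of 6.37, 7.08 and 7.59 there and of 1.11, 1.37 and 0.84 in si-FGF9. It was at 2.42, 1.66 and 2.58 TPM in HG and at 0.79, 1.01 and 1.73 TPM in HG + OE-FGF9. NG lay above all other libraries, and si-FGF9 lay below HG and overlapped HG + OE-FGF9. On the log2 scale the change was -1.93 ± 0.20 (limma, adjusted p = 1.30e-05) in si-FGF9 versus NG and -1.32 ± 0.20 (adjusted p = 0.00098) in HG versus NG. Each call was kept whichever library of the comparison was left out, at -1.41 in HG versus NG without HG replicate 3.

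TNRC6B (ENSG00000100354, chr22:40044817-40335808, plus strand) had TPM of 2.01, 2.21 and 1.98 in NG, 0.50, 0.53 and 0.83 in si-FGF9, 0.64, 0.49 and 0.62 in HG and 0.80, 1.12 and 1.0 in HG + OE-FGF9. NG stood above all other libraries. Its log2 fold change was -0.93 ± 0.15 in si-FGF9 (limma, adjusted p = 0.000172) and -0.95 ± 0.15 in HG (adjusted p = 0.00104), each versus NG and short of a log2 fold change of 1. On this log2(TPM + 1) scale the change of a low gene is understated, and with a pseudocount of 0.1 the values were -1.62 and -1.67 and both were called.

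TNRC6C (ENSG00000078687, chr17:77959240-78108835, plus strand) was low throughout and not tested. Its TPM were 0.80, 0.63 and 0.65 in NG, 0.82, 1.08 and 0.51 in si-FGF9, 0.42, 0.32 and 0.76 in HG and 0.25, 0.16 and 0.20 in HG + OE-FGF9. Its si-FGF9 and NG values overlapped, unlike those of the other TNRC6 genes, and HG + OE-FGF9 was lowest. TNRC6C-AS1, on the other strand, shares 1438 exonic bases with it.

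Between HG and NG, 2 of the 9 members tested were called, DICER1 and TNRC6A, both lower, or 22.2%, against 24.4% of all genes and 22.7% called lower. By an adjusted p under 0.05, 6 of the 9 passed, against 49.0%. By the fold and p rule, 4 were called without HG replicate 3, AGO2 and AGO4 being added, against 32.4% of all genes. Both comparisons use the same NG libraries, in which AGO1, AGO4, DICER1, PRKRA, TNRC6A and TNRC6B, 6 of the 10 members, were above all 9 other libraries. The same was true of 41.9% of the genes tested. The si-FGF9 libraries lay below the NG libraries for 8 of the 10 members, all but AGO3 and TNRC6C, against 62.1% of the genes tested. For 1 gene in 3 against 3 libraries, the smallest p of an exact two-sided permutation test is 0.1.

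**Figure D2:**
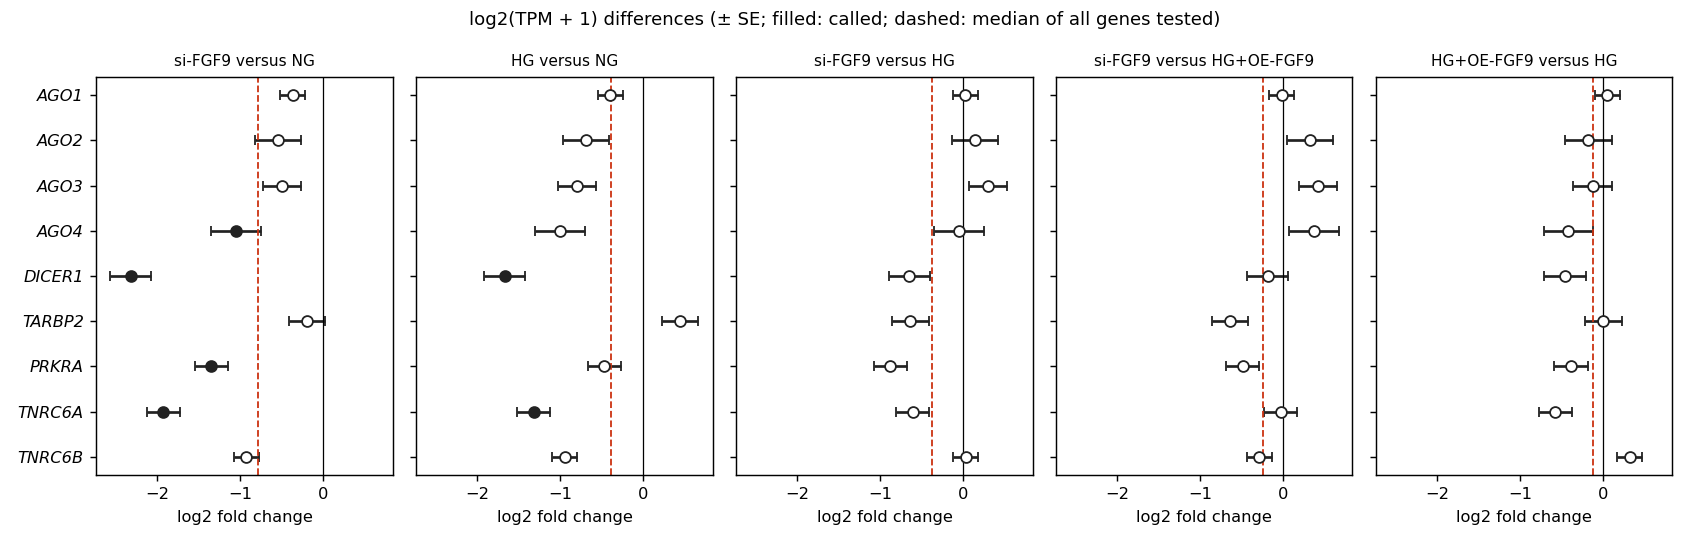
Differences on the log2(TPM + 1) scale (± SE, limma) for the 9 members tested in 5 comparisons, with filled points for called genes and a dashed line at the median of all genes tested. Called points are present only in the comparisons with NG, where the median of all genes was -0.79 for si-FGF9 and -0.39 for HG, and in si-FGF9 versus NG the AGO1, AGO2 and AGO3 values, negative here, are positive with median-of-ratios scaling, quantile normalization or a GC correction, as is that of TARBP2 with the scalings but not the GC corrections, and those of AGO4, TNRC6B and PRKRA are with the GC correction.

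Against HG, 0 of 9 members were called in si-FGF9 (limma), where 11.1% of all genes were, and 4 had an unadjusted p under 0.05. Of these, 3 also had an adjusted p under 0.05, as did 32.9% of all genes. The log2 fold change of PRKRA was -0.88 ± 0.20 (adjusted p = 0.00898), that of TARBP2 -0.64 ± 0.22 (adjusted p = 0.0439) and that of TNRC6A -0.61 ± 0.20 (adjusted p = 0.0404). DICER1 was at -0.65 ± 0.25 (adjusted p = 0.0589). PRKRA passed the fold threshold without HG replicate 2, at -1.05, and without si-FGF9 replicate 2, at -1.02. The AGO genes were at -0.05 to 0.30, with adjusted p of 0.33 to 0.91, while the median of all genes was -0.38. Without HG replicate 3, the library that stood apart, AGO2 was at 0.55 (adjusted p = 0.0188) in place of 0.14, TARBP2 at -0.93 (adjusted p = 0.00142), PRKRA at -0.78 (adjusted p = 0.0166) and TNRC6A at -0.53 (adjusted p = 0.083).

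Against HG + OE-FGF9, 0 of 9 were called in si-FGF9 (limma), against 9.0% of all genes, and 2 had an unadjusted p under 0.05. These were TARBP2, at -0.64 ± 0.22 (adjusted p = 0.0524), and PRKRA, at -0.49 ± 0.20 (adjusted p = 0.0942), and they were at -0.55 and -0.35 without HG + OE-FGF9 replicate 3. In both comparisons with the high glucose groups, a median-of-ratios scaling reduced the PRKRA difference, to -0.40 versus HG and -0.14 versus HG + OE-FGF9. Against the mean of the other 3 groups, 1 of 9 members was called, DICER1 at -1.06 ± 0.20 (adjusted p = 0.00111), where 20.3% of all genes were. Another 4 members passed by an adjusted p under 0.05 alone, 5 of 9 in all, against 60.5% of all genes. The DICER1 call was lost without HG replicate 3, at -0.98, or si-FGF9 replicate 2, at -0.99. It was also lost with median-of-ratios scaling, at -0.67, with quantile normalization, at -0.53, and with the correction for GC content, at -0.26 (adjusted p = 0.18). In HG + OE-FGF9 versus HG, which involves no siRNA, 0 of 9 were called (limma), against 5.61% of all genes, and only TNRC6A had an unadjusted p under 0.05, at -0.58 ± 0.20 (adjusted p = 0.0968). Without HG replicate 3 TNRC6A was at -0.49, and without HG + OE-FGF9 replicate 3 at -0.75 (adjusted p = 0.0198).

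The direction of several members depended on how the libraries were scaled. Relative to the median of all genes, the si-FGF9 versus NG difference was -1.53 for DICER1, -1.14 for TNRC6A, -0.55 for PRKRA, -0.25 for AGO4 and -0.13 for TNRC6B, but 0.42 for AGO1, 0.24 for AGO2, 0.29 for AGO3 and 0.60 for TARBP2. With the libraries scaled by the median of ratios, DICER1 (-1.62, limma adjusted p = 7.28e-05) and TNRC6A (-1.19, adjusted p = 0.000115) were the 2 members still called. Of all genes, 36.8% were called with that scaling. AGO1, AGO2 and AGO3 were then at 0.25, 0.31 and 0.27 and TARBP2 at 0.77 (adjusted p = 0.0168).

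A correction of each library for GC content left DICER1 at -0.71 ± 0.18 (limma, adjusted p = 0.00623) and TNRC6A at -0.99 ± 0.14 (adjusted p = 0.00013), both short of the fold threshold. AGO3, with a GC content of 38.93%, was then the only member called, and higher in si-FGF9, at 1.12 ± 0.25 (adjusted p = 0.00269) in place of -0.50. PRKRA turned from -1.35 to 0.30 (adjusted p = 0.117), AGO4 from -1.05 to 0.08 (adjusted p = 0.828) and TNRC6B from -0.93 to 0.16 (adjusted p = 0.447). DICER1 and TNRC6A were below 0 under every scaling and correction tried for si-FGF9 versus NG, from -0.55 to -3.24 and from -0.68 to -2.58. In HG versus NG the same correction gave -0.60 ± 0.18 for DICER1 (adjusted p = 0.0296) and -0.77 ± 0.14 for TNRC6A (adjusted p = 0.00288), while PRKRA turned from -0.47 to 0.65 (adjusted p = 0.0111). With this correction 24.3% of the genes tested were called in si-FGF9 versus NG, and the part that GC content plays in the members' differences was not tested further. FGF9, at 0 TPM in all NG and si-FGF9 libraries, was at 1.63 in si-FGF9 versus NG after the correction (limma adjusted p = 0.00013). The correction thus gave a difference to a gene without measured expression. Corrected values of members with low TPM, among them AGO1, AGO3, AGO4 and TNRC6B, carry the same limit. So do those of DICER1 and TNRC6A, which were at means of 0.743 and 1.11 TPM in si-FGF9.

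**Figure D3:**
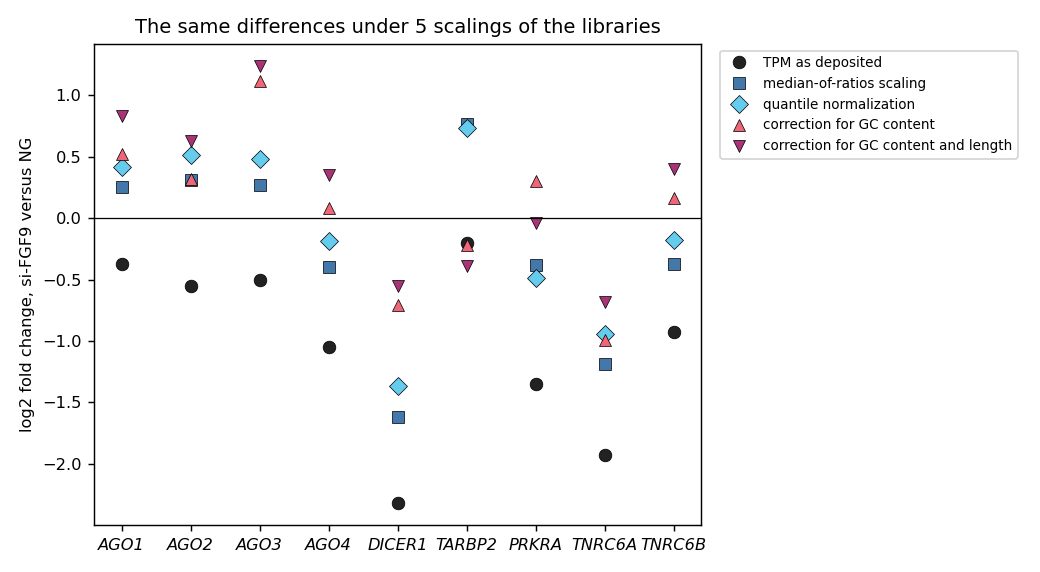
Log2 fold changes of si-FGF9 versus NG for the 9 members tested, with the TPM as deposited and under 4 other scalings or corrections. DICER1 and TNRC6A lie below 0 under all 5, and AGO1, AGO2 and AGO3 lie below 0 only with the TPM as deposited, PRKRA, AGO4 and TNRC6B lie above 0 under the GC correction, and TARBP2 lies above 0 under the 2 scalings.

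Shares within a family do not move with the scaling of a library. Summed AGO1 to AGO4 TPM were 15.3 ± 0.77 (SD, n = 3) in NG, 9.02 ± 1.09 in si-FGF9, 8.13 ± 3.30 in HG and 6.49 ± 0.699 in HG + OE-FGF9. AGO2 made up 41.5% ± 0.564 of the sum in NG and 45.3% ± 8.63 in si-FGF9, with single libraries at 54.8%, 43.1% and 38.0%. The difference of 3.80 percentage points was well within the spread of si-FGF9 (exact two-sided permutation test, p = 0.7), and it turned to -0.962 without si-FGF9 replicate 1. In HG replicate 3 the AGO2 share was 59.1%, against 36.0% and 42.5% in the other HG libraries.

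No difference in TNRC6 shares could pass a threshold of 0.05 with 3 libraries a group, and the TNRC6C shares rest on levels of 1.08 TPM or less. TNRC6A made up 69.4%, 71.4% and 74.3% of the summed TNRC6 TPM in NG and 45.7%, 46.0% and 38.5% in si-FGF9. TNRC6C made up 8.71%, 6.35% and 6.36% in NG and 33.7%, 36.2% and 23.4% in si-FGF9, a difference of 24.0 percentage points. The groups did not overlap, and the exact permutation test gave p = 0.1, the smallest it can give here. In HG, TNRC6C made up 14.7% ± 3.88 and TNRC6A 67.3% ± 2.20, and the means of si-FGF9 minus HG were 16.4 points for TNRC6C and -23.9 points for TNRC6A (exact permutation test, p = 0.1 for each). TNRC6B made up 42.2% ± 7.48 in HG + OE-FGF9, 20.6%, 17.8% and 38.1% in the si-FGF9 libraries and 21.2% ± 1.58 in NG (exact permutation test of si-FGF9 versus NG, p = 0.9). The summed level was 9.77 ± 0.535 TPM in NG and 2.53 ± 0.409 TPM in si-FGF9, so that the larger TNRC6C share in si-FGF9 came with TNRC6C levels that overlapped NG.

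DICER1 made up 15.2% ± 0.982 of the summed DICER1, TARBP2 and PRKRA TPM in NG, 3.05% ± 0.932 in si-FGF9, 4.26% ± 2.49 in HG and 2.60% ± 0.643 in HG + OE-FGF9. The difference between si-FGF9 and NG was -12.1 percentage points (exact permutation test, p = 0.1) and that between si-FGF9 and HG -1.21 points (p = 0.7). TARBP2 made up 31.4% ± 1.75 in NG and 56.0% ± 2.31 in si-FGF9, without overlap (exact permutation test, p = 0.1). The shares were computed from TPM as deposited, and a correction for GC content moved the DICER1 difference to -4.83 points.

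**Figure D4:**
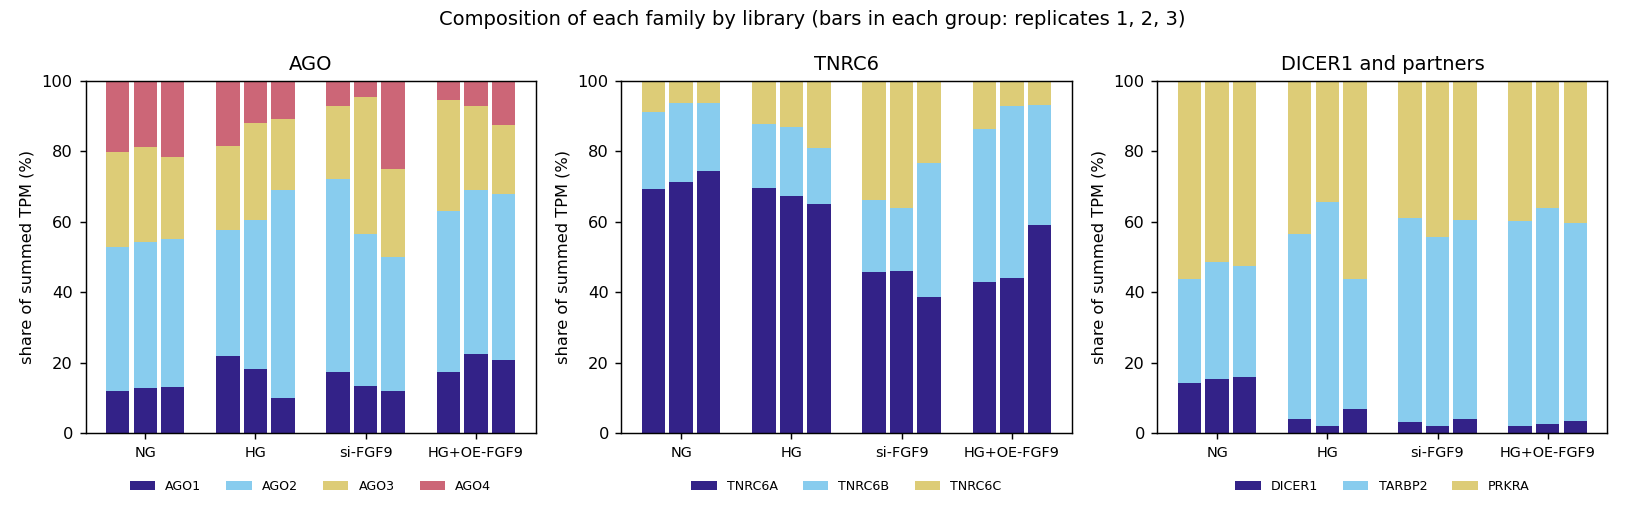
Share of each gene in the summed TPM of its family, in percent, with a stacked bar for each of the 12 libraries. TNRC6C took 23.4% to 36.2% of the TNRC6 sum in the si-FGF9 libraries and 6.35% to 8.71% in NG, DICER1 made up 6.92% or less of its family outside NG, and the AGO shares varied among the si-FGF9 libraries.

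The genes whose pattern over the 12 libraries was most like that of AGO2 were INSIG1, FGD6 and ELP2, with Pearson's r of 0.976, 0.972 and 0.967 on log2(TPM + 1) among 8593 genes with a symbol and a mean of at least 5 TPM. For DICER1 they were NNT, YTHDF3 and SMAD4, with r of 0.992, 0.991 and 0.991. These values describe genes that share libraries, groups and scaling.

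Around the 10 members, 6 lists of 103 genes covered the steps before and after them, and 92 were tested. In si-FGF9 versus NG, 60 of the 92 were called lower and 0 higher (65.2%), where 47.6% of all genes were called and 42.2% called lower, with a median log2 fold change of -1.34 beside -0.79 for all genes. After the correction for GC content, 14 were called lower and 6 higher, with a median of -0.29, where 24.3% of all genes were called. In HG versus NG 31 of the 92 were called lower (33.7%), and in si-FGF9 versus HG 24 lower and 1 higher (27.2%), where 24.4% and 11.1% of all genes were called. In si-FGF9 versus HG + OE-FGF9, 8 of the 92 were called (8.70%), close to the 9.0% of all genes. Against the mean of the other 3 groups 34 were called (37.0%), beside 20.3% of all genes, and in HG + OE-FGF9 versus HG 5 (5.43%), close to the 5.61% of all genes.

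Of the nuclear steps, 6 of 11 genes were called lower in si-FGF9 versus NG, where 42.2% of all genes were, and 2 lower and 1 higher after the correction for GC content. DROSHA, the nuclear ribonuclease that makes microRNA precursors, was at 53.6 ± 14.0 TPM (SD, n = 3) in NG and 49.1 ± 14.9 TPM in si-FGF9 (log2 fold change -0.14 ± 0.24, limma adjusted p = 0.621). Its partner DGCR8 was at 3.26 ± 0.435 and 1.21 ± 0.489 TPM (-0.96 ± 0.30, adjusted p = 0.013). DGCR8 was called lower in si-FGF9 versus HG, at -1.27 ± 0.30 (adjusted p = 0.0104). XPO5, which exports the precursors, was at 18.3 ± 2.34 TPM in NG and 22.9 ± 0.883 TPM in si-FGF9 (0.32 ± 0.16, adjusted p = 0.0875). The list's largest decrease was in DDX5, an RNA helicase of the DROSHA complex, from 259.7 ± 38.8 to 17.1 ± 3.01 TPM (-3.85 ± 0.29, adjusted p = 4.51e-06), and DDX5 was still lower after the correction for GC content, at -2.54.

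Of the genes that load Argonaute and remove the passenger strand, mostly chaperones, 6 of 10 were called lower, beside 42.2% of all genes, but 0 lower and 2 higher after the correction for GC content. The largest decrease was in DNAJA2, from 53.0 ± 8.46 to 11.7 ± 1.82 TPM (-2.09 ± 0.30, limma adjusted p = 6.69e-05). Of the deadenylation, decapping and repression genes that act after TNRC6, 24 of 33 were called lower, and 5 lower and 2 higher after that correction. TOB1, which links deadenylases to their targets, was at 21.3 ± 2.45 TPM in NG and 1.76 ± 0.735 TPM in si-FGF9 (-3.04 ± 0.32, adjusted p = 1.25e-05). Of the partners of Argonaute and regulators of microRNA stability, 11 of 17 tested were called lower, and 2 lower and 1 higher after it. TUT4, which adds uridines to RNA ends, was at 23.9 ± 5.77 and 1.74 ± 0.296 TPM (-3.17 ± 0.37, adjusted p = 1.99e-05). DDX5, DNAJA2, TOB1 and TUT4 were also called lower in HG versus NG, at -1.94, -1.01, -1.8 and -1.65. In si-FGF9 versus HG they were called lower again, at -1.92, -1.08, -1.25 and -1.52. In si-FGF9 versus HG + OE-FGF9, DDX5 and TOB1 were called lower (-1.04 and -1.14), and DNAJA2 and TUT4 were not (-0.67 and 0.02).

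Of the genes that bind or sense double-stranded RNA, 11 of 18 tested were called lower in si-FGF9 versus NG and 0 higher, beside 42.2% of all genes called lower. After the correction for GC content 5 were called lower and 0 higher, where 24.3% of all genes were called in either direction. EIF2AK2, the kinase PKR that PRKRA activates, was at 12.15, 12.11 and 10.59 TPM in NG and 2.12, 2.45 and 1.93 TPM in si-FGF9 (-2.0 ± 0.33, limma adjusted p = 0.000176). With GC content corrected, EIF2AK2 was at -0.37 (adjusted p = 0.0827). It was also called lower in HG, which received no siRNA (-1.09 ± 0.33 versus NG, adjusted p = 0.0161), but was at -0.0 there with GC content corrected (adjusted p = 0.991). STAU2, a double-stranded RNA-binding transport factor, had the list's largest decrease, from 36.1 ± 4.59 to 6.18 ± 0.563 TPM (-2.37 ± 0.29, adjusted p = 2.43e-05). STAU2 was also called lower in HG versus NG (-1.57), and was not called in si-FGF9 versus HG (-0.79) or HG + OE-FGF9 (-0.06). Only 3 of the 10 PIWI clade and germline genes were tested, and 2 were called lower, TDRD9 more than the other (-1.30 ± 0.28, adjusted p = 0.00127), with 0 called after the correction for GC content.

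**Figure D5:**
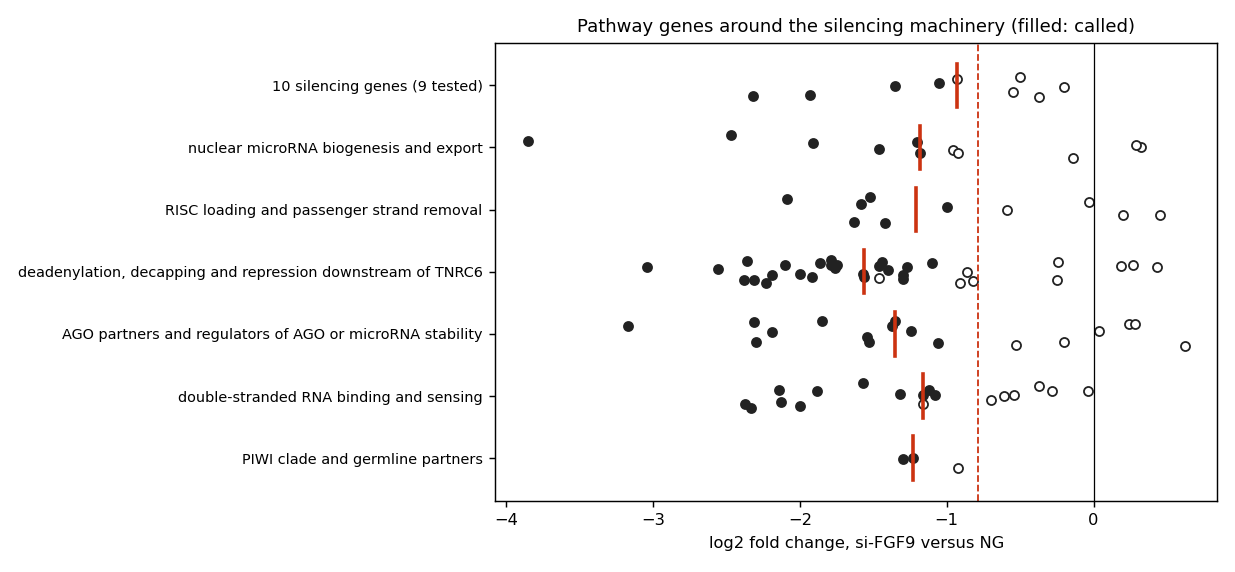
Log2 fold changes of si-FGF9 versus NG for the 9 members tested and for the tested genes of the 6 lists, each point a gene, filled where called. Solid red lines are list medians and the dashed red line is the median of all genes, -0.79. The list medians lie further below 0 than that line, no called gene lies above 0, and the spread within each list is wide.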

How the data were processed

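RNA of HK2 cells was sequenced in 12 libraries. The authors deposited TPM for each Ensembl gene (unit inferred from the sums of the values). The submitters' processing notes name Bowtie 0.12.2 and the mouse build mm8, against human identifiers, and the quantification tool is not given in the sources used here. TPM keep no depth, so precision was judged from the spread of 3 libraries.

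Differences were tested with limma 3.58.1 (R 4.3.3) on log2(TPM + 1), with a variance trend, all 12 libraries in one fit and Benjamini-Hochberg adjustment over the 14639 genes whose TPM reached 1 in 3 libraries. Genes were called at an absolute log2 fold change of 1 or more and unadjusted p under 0.01, after the study's thresholds, for which it does not say whether p was adjusted. The fit was tested on simulated data. Shares were compared by exact permutation (scipy 1.17.1). Annotation, GC content and transcripts came from GENCODE 29 (GRCh38). The GC correction subtracted a spline with 5 degrees of freedom from each library. Each library's overall shift is removed with it.

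The members and lists were chosen with earlier results of these data known. Named outside the members were FGF9, DROSHA, DGCR8, XPO5 and EIF2AK2, the called gene with the largest change per list and direction in si-FGF9 versus NG, and the 3 genes most correlated with AGO2 and with DICER1. Alternatives were other pseudocounts, filters, scalings, call rules, a replicate block, and each library left out.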

Additional observations from a re-analysis of the deposited data

How the results depend on the processing

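Of 993 fold changes of members recomputed under the alternatives, 938 kept their side of the call rule and did not reverse, 33 lost a call, 14 gained a call and 8 reversed, and 111 changed sign, mostly uncalled. The reversals were in si-FGF9 versus NG: AGO3 went to 1.12 with the GC correction, with or without the replicate block, and to 1.24 with the GC and length correction, AGO4 to 0.08 and 0.35, and PRKRA to 0.30 with the GC correction, with or without the block. Of the members, 4 were called in si-FGF9 versus NG, but 2 with median-of-ratios scaling and 1 with quantile normalization, each GC correction or when TPM had to reach 1 in all 12 libraries, a filter that removes DICER1 and TNRC6A among others. Of all genes, 36.8% were called with median-of-ratios scaling, 33.3% with quantile normalization, 19.9% to 24.3% with the GC corrections and 47.6% with that filter. The 2 members called in HG versus NG became 6 by adjusted p alone, 4 with a pseudocount of 0.1 or without mitochondrial and small nuclear RNAs, 1 with median-of-ratios scaling or quantile normalization, and 0 with the strict filter or the GC corrections. In the order named, the shares of all genes were 49.0%, 28%, 25.8%, 15.7%, 15.3%, 23.9% and, with the GC corrections, 5.28% to 6.84%. The 1 member called against the mean of the other 3 groups became 5 by adjusted p alone, 2 with a pseudocount of 0.1 or without mitochondrial and small nuclear RNAs, and 0 with the strict filter, the GC corrections, median-of-ratios scaling or quantile normalization. Here the shares of all genes were 60.5%, 32.1%, 26.2%, 21.2%, 7.2% to 7.96% with the GC corrections, 12.2% and 9.6%. In si-FGF9 versus HG, 3 members passed by adjusted p alone, against 32.9% of all genes. Leaving out single libraries gave 3 to 5 members called in si-FGF9 versus NG, 0 to 1 versus HG, 0 to 1 versus the mean of the other groups and 2 to 4 in HG versus NG. In the same order, 45.7% to 47.6%, 7.18% to 17.5%, 17.7% to 23.3% and 15.3% to 32.4% of all genes were called. The number of members outside a range went from 1 to 8 when only NG set the range. All 8 had their si-FGF9 libraries below NG, as did 62.1% of the genes tested. For the causes of these changes, only the strict filter's fewer genes are shown, and the cause was not tested for the others.

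For the pathway lists, the GC correction, the GC and length correction, the GC correction with replicate block, median-of-ratios scaling and quantile normalization gave 20, 16, 18, 34 and 33 called genes in si-FGF9 versus NG (60 as reported), 4, 5, 3, 7 and 8 versus HG (25), 3, 4, 2, 3 and 2 versus HG + OE-FGF9 (8), 8, 7, 8, 8 and 7 versus the mean of the other groups (34), and 1, 3, 1, 10 and 13 in HG versus NG (31). By adjusted p alone they were 45, 20, 66 and 55 in the last 4, and 11 in HG + OE-FGF9 versus HG (5), where a pseudocount of 0.1 gave 8, the 6 libraries alone 2 and the GC and length correction 3. Of all genes, 32.9%, 24.9%, 60.5% and 49.0% passed by adjusted p alone in the same 4. In HG + OE-FGF9 versus HG the shares of all genes were 9.53%, 8.01%, 4.26% and 4.88%, in the order named. Leaving out libraries gave 59 to 61, 14 to 30 (14 without HG replicate 1), 4 to 7, 26 to 37, 18 to 39 (18 without HG replicate 2) and, for HG + OE-FGF9 versus HG, 3 to 11 (11 without HG replicate 2 or HG + OE-FGF9 replicate 3). Of all genes, these fits called 45.7% to 47.6% in si-FGF9 versus NG, 7.18% to 17.5% versus HG and 7.84% to 10.1% versus HG + OE-FGF9. In the others they called 17.7% to 23.3%, 15.3% to 32.4% and 3.75% to 11%, in the same order. Over all genes, the first 5 settings called 24.3%, 19.9%, 24.1%, 36.8% and 33.3% in si-FGF9 versus NG and 5.86%, 5.45%, 5.62%, 7.98% and 5.99% versus HG. Versus HG + OE-FGF9 they called 7.17%, 7.22%, 7.03%, 8.63% and 7.29%, and versus the mean of the other groups 7.96%, 7.2%, 7.84%, 12.2% and 9.6%. In HG versus NG they called 6.84%, 5.28%, 6.82%, 15.7% and 15.3%. The difference in AGO2 share ranged from -0.962 to 7.45 points without a library and was -10.4 with the GC correction, that in TNRC6C share from 21.4 to 27.9, and that in DICER1 share from -12.7 to -11.7, with -4.83 under the GC correction and -16.2 on log2 values.

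Same-numbered libraries did not deviate together (r of -0.439 to 0.248 over 18 pairs, 3 above 0.1), and 36 differently numbered pairs were at -0.337 to 0.463. With 3 libraries a group, some of which stood apart, these values cannot exclude that libraries of one number were handled together. With the replicate number as a block, 4 members were called in si-FGF9 versus NG, 2 in HG versus NG and 1 against the mean of the other groups, and 61, 24, 7, 34, 32 and 5 list genes in the order above. Of all genes, the block called 47.3% in si-FGF9 versus NG, 10.5% versus HG and 8.87% versus HG + OE-FGF9. It called 20.2% against the mean of the other groups, 24% in HG versus NG and 5.42% in HG + OE-FGF9 versus HG.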
